A study of Mus musculus with 2 samples.

Results

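The 10 genes described here supply a cell with fatty acids, either from outside (Cd36 and Fabp5) or by synthesis from citrate (Acly, Acaca, Fasn), followed by elongation (Elovl1, Elovl5, Elovl6) and desaturation (Scd1, Scd2). They were chosen by gene symbol, with their levels in these same libraries already known, so the levels and differences below are descriptions with no test. All 10 were found among the 43346 annotated genes of the deposited gene tables. The RNA came from CH12.LX, a mouse line established from a B-cell lymphoma of strain B10.H-2aH-4bp/Wts that the labels present as the counterpart of the human line GM12878. RNA longer than 200 nt was sequenced with ERCC spike-in RNAs from 2 biological replicates, which are separate biosamples of 1 group. The labels name no treatment, so no comparison between conditions exists. The labels give the sex as female and the age as unknown, and name the assay as total RNA sequencing in 1 field and as polyA+ in another. Expected counts summed to 24469094 in replicate 1 and 23586580 in replicate 2. Levels are in TPM, which is transcript abundance per unit of length set to a common total for each library, given as mean ± SD over the 2 replicates.

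Cd36 is a membrane glycoprotein that binds and takes up long-chain fatty acids, and Fabp5 is a cytosolic protein that carries them within the cell. In the cytosol, Acly splits citrate into acetyl-CoA, Acaca carboxylates acetyl-CoA to malonyl-CoA, and fatty acid synthase, the product of Fasn, joins both into palmitate. In the endoplasmic reticulum, elongases of the Elovl family start each cycle that lengthens a fatty acid, and the stearoyl-CoA desaturases Scd1 and Scd2 put the first double bond into saturated chains. Transcription factors of the SREBP family are known activators of many of these synthesis genes.

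CH12.LX cells contained RNA of every one of these genes. All 10 were at 1 TPM or more in both replicates, as were 25.4% of all annotated genes. Their means spanned from 449 ± 34.1 TPM for Cd36 to 4.57 ± 0.0849 TPM for Elovl6 (n = 2 each), against a median of 17.8 TPM over all 10998 genes that passed the same threshold. The genes for uptake and intracellular carriage stood at the top, the citrate-cleaving enzyme and the desaturases followed, and the elongase for palmitate stood last. The 10 genes together held 0.435% of the counts of genes in replicate 1 and 0.39% in replicate 2.

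**Figure D1:**
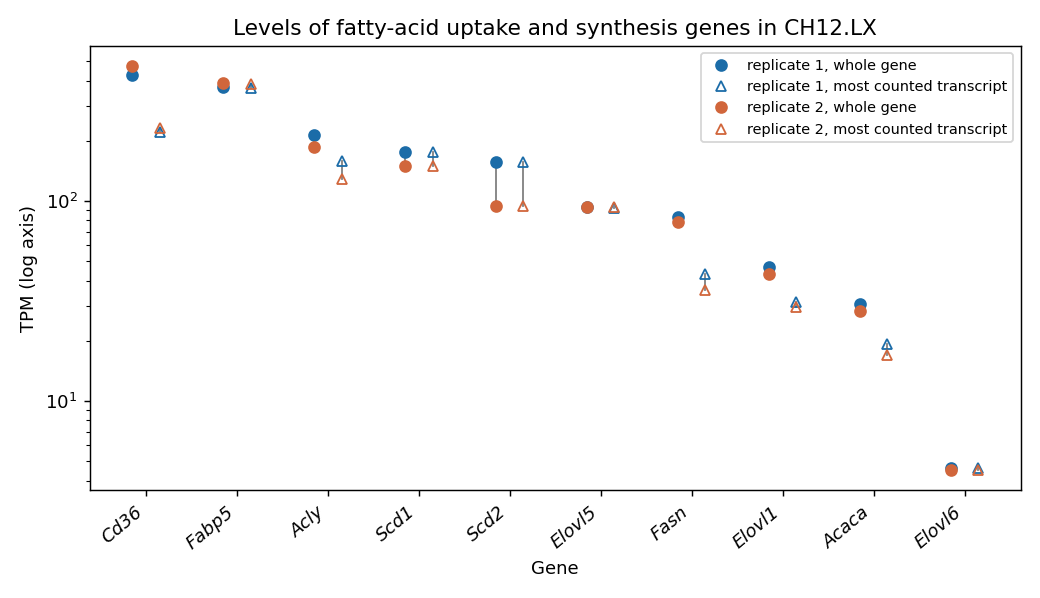
TPM (log axis) of each gene in replicates 1 and 2, for the whole gene (filled circles) and for its transcript with the most expected counts (open triangles). Fasn, Acaca, Elovl1, Acly and Cd36 were lower by the single transcript than by the whole gene, and the replicates of Scd2 stood farthest apart.

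A few stretches of coding sequence show what the transcript and gene results below turn on. The first is exon 14 of Acly transcript Acly-203, which the other full-length Acly transcripts lack (GRCm38, chr11:100503160-100503189, minus strand, within the coding sequence). It has 30 bases, a whole number of codons, and is printed in capitals between 30 bases of each neighbouring exon, from the GENCODE M21 transcript.
Acly-203: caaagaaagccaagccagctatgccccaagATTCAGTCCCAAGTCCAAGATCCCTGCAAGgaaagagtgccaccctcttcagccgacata
The others are windows of 90 coding bases from the paralogs Scd1 and Scd2, which lie near each other on chromosome 19 and have 90.3% identical bases over 1065 aligned coding bases. Capitals mark the bases that differ. In the least alike window without a gap, 30 of the 90 bases differed.
Scd1, coding bases 75 to 164: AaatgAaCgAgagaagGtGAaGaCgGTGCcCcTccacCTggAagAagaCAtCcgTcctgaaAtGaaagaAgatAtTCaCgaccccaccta
Scd2, coding bases 84 to 173: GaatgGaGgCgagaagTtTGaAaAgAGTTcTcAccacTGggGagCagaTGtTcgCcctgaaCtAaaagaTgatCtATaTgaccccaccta
The most alike window was the same in both genes, at coding bases 523 to 612 of Scd1 and 532 to 621 of Scd2.
Scd1 and Scd2: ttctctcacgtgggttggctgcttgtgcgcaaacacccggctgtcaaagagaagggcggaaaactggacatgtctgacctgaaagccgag

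Cd36 (ENSMUSG00000002944.11, GRCm38 chr5:17781690-17888801, minus strand) had the highest level of the 10 genes. It was at 425 TPM in replicate 1 and 473 TPM in replicate 2, from 28733 and 30721 expected counts. The level placed it at rank 304 of all genes by mean TPM. Its replicates did not overlap those of Fabp5, the next gene in the order. Cd36 is also known from macrophages, adipocytes, endothelium and platelets, so markers of these cells were read beside it. None of 8 adipocyte markers reached 1 TPM in both replicates, and their summed level was 0.83 TPM in replicate 1 and 0.6 TPM in replicate 2. Among them Lep, Cidea, Retn and Cfd had 0 counts. Of 12 macrophage and monocyte markers, 2 passed, with a summed level of 103 and 102 TPM that came mostly from Cd68 at 93.8 and 93.5 TPM. Adgre1, the F4/80 antigen, was the other at 7.09 and 6.31 TPM, while C1qa, C1qb and Cd14 had 0 counts. Pecam1 passed among 8 endothelial markers (14.2 and 15.5 TPM; summed level 14.7 and 15.9 TPM), with Kdr, Tie1 and Gpihbp1 at 0 counts. Hba-a1, a haemoglobin gene at 4.03 and 3.16 TPM, passed among 8 platelet and erythroid markers (summed level 4.75 and 3.81 TPM), with Pf4, Ppbp and Gp9 at 0 counts. Hba-a1 has a near-identical copy, so its share of the reads is uncertain. Of 8 hepatocyte and keratinocyte markers 0 passed. All 10 B-cell markers passed, as did 8 of 10 markers of marginal-zone and B-1 B cells, of which 5 were also at 5 TPM or more. Cr2 (0.47 and 0.39 TPM) and Dtx1 (0.76 and 0.23 TPM) did not pass. The part of cells other than B cells in the Cd36 level was not tested. In bulk RNA, fewer cells of a type and less RNA per cell cannot be told apart.

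The Cd36 level was spread over 4 coding transcripts that share the same coding sequence of 1416 bases and differ in their first exons. Cd36-204 held 52.1% of the gene's TPM in replicate 1 and 49.2% in replicate 2. Cd36-202 and Cd36-204 have first exons that end at the same base and start at different ones (chr5:17849657-17849729 and chr5:17849657-17849792). Together they held 66.6 ± 0.47%. Cd36-203 starts farther upstream (chr5:17888711-17888747) and held 22.2 ± 0.101%. Cd36-201 starts nearest to the coding exons (chr5:17835618-17835696) and held 11.1 ± 0.369%. The order of the 3 start regions was the same in both replicates. The deposited posterior SD was between 179 and 314 counts for these transcripts, against 3201 to 14835 counts each. These exon positions are those of M21, in which 3 of the 4 transcripts have another length than in the deposited tables, so the exons used by the authors may differ in part.

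Fabp5 (ENSMUSG00000027533.10, GRCm38 chr3:10012548-10016607, plus strand) was at 371 and 388 TPM, from 6026 and 6055 expected counts. Cd36 had more counts, but its transcripts are longer, and per length the ratio of Fabp5 to Cd36 was 0.874 in replicate 1 and 0.82 in replicate 2. The spliced coding transcript Fabp5-201 carried 99.4% of the TPM in both replicates. Fabp5 has 5 processed pseudogenes with 93.6% to 98.3% identity over 336 to 409 bases. Gm6166, on chromosome 9 and the most similar of them, was assigned 175 and 143 counts, or 18.7 and 16 TPM. Gm14328 was assigned 9.24 and 12 counts, and each of Fabp5l2, Gm13998 and Gm6100 at most 2 counts. With the TPM of all 5 added, the sum would be 400 TPM in place of 380 ± 11.8 TPM for Fabp5 alone, so the order of the genes stays as it was. The TPM of each copy is per its own length, so the sum is not the level Fabp5 would have with their reads.

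The other genes of uptake and binding were mostly low. Of 23 genes in a list that includes Cd36 and Fabp5, 10 were at 1 TPM or more in both replicates and 7 had 0 counts in both. Dbi, the acyl-CoA-binding protein, was at 384 and 426 TPM, between Fabp5 and Cd36 in mean level. Of the 6 fatty-acid transport proteins of the Slc27 family, Slc27a4 was highest at 3.67 and 2.77 TPM, Slc27a1 and Slc27a3 were near 1 TPM, and Slc27a2, Slc27a5 and Slc27a6 had 0 counts. Fabp4, the fatty acid-binding protein of adipocytes, had 1 count in replicate 1 and 0 in replicate 2. Lpl, the lipase that frees fatty acids from lipoproteins, also had 1 and 0 counts.

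Acly (ENSMUSG00000020917.13, GRCm38 chr11:100476353-100528000, minus strand) led the synthesis genes at 213 TPM in replicate 1 and 187 TPM in replicate 2, from 17800 and 14663 counts. Acss2, which makes cytosolic acetyl-CoA from acetate instead, was at 8.42 and 6.58 TPM. The ratio of Acly to Acss2 was 25.3 in replicate 1 and 28.4 in replicate 2. By expected counts per annotated exon length it was 76.3 on average, and by the most counted transcript of each gene 21, so its size depended on how length was taken into account while Acly stayed the higher. Slc25a1, the carrier that exports citrate from mitochondria, was at 86.6 and 73.3 TPM.

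Most Acly RNA was assigned to the transcript with the 30-base exon shown in capitals above. Acly-203 was at 158 TPM in replicate 1 and 129 TPM in replicate 2. Among the 3 full-length transcripts it held 78.3% and 74.1% (76.2 ± 2.98%). The transcripts without the exon, Acly-201 and Acly-207, code for the same protein and differ in their starts. Their split differed between replicates, with Acly-201 at 40.2 and 16.6 TPM and Acly-207 at 3.61 and 28.7 TPM. Their sum was 43.8 TPM in replicate 1 and 45.3 TPM in replicate 2. Acly-201 had 3506 and 1386 counts and Acly-207 had 297 and 2266, with posterior SDs between 209 and 430. The summed level differed less between replicates than either part, and its own posterior SD was not computed.

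Acaca (ENSMUSG00000020532.14, GRCm38 chr11:84129672-84401651, plus strand) was at 30.7 TPM in replicate 1 and 28.3 TPM in replicate 2, from 3681 and 3080 counts. Acacb, the isozyme at the mitochondrial membrane whose malonyl-CoA restrains fatty-acid oxidation, was lower at 10.3 and 10.7 TPM. The ratio of Acaca to Acacb was 2.98 and 2.64. Of the 16 genes for acetyl-CoA, NADPH and malonyl-CoA supply, 15 were at 1 TPM or more in both replicates. Thrsp, known from lipogenic tissues, had 0 counts, and its paralog Mid1ip1, an activator of acetyl-CoA carboxylase, was at 39.4 and 30.3 TPM. Gm5182, a copy of Acaca with 99.2% identity over 6118 bases, had no match among the measured genes and so has no level of its own. How far its reads, if any, entered the Acaca level was not tested.

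Fasn (ENSMUSG00000025153.8, GRCm38 chr11:120805846-120824547, minus strand) was at 82.8 TPM in replicate 1 and 78.6 TPM in replicate 2, from 9014 and 7279 counts. Per length, Fasn was thus above Acaca, with a ratio of 2.7 and 2.78. In the list for chain building in the cytosol and mitochondria, all 8 measured genes passed the threshold. Ndufab1, the mitochondrial acyl carrier protein, was highest at 191 and 205 TPM and Acsf3 lowest at 1.54 and 1.48 TPM.

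The gene-level TPM of Fasn and Acaca depended on a few counts in short transcripts. The full-length coding transcript Fasn-201 held 94.3% of the gene's counts in replicate 1 and 92.5% in replicate 2, but 52.5% and 45.6% of its TPM. The rest of the TPM came from 2 short retained-intron transcripts. Fasn-202, of 762 bases, had 273 and 246 counts and held 29.3% and 28.9% of the TPM. Fasn-203, of 971 bases, had 237 and 301 counts and held 18.3% and 25.5%. Fasn-201 alone was at 43.5 and 35.9 TPM. In Acaca, the full-length Acaca-201 held 96.5% and 96.9% of the counts but 62.8% and 59.7% of the TPM. Acaca-206, a fragment of 431 bases with 29.4 and 30.5 counts, held 22% and 25.7%.

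**Figure D2:**
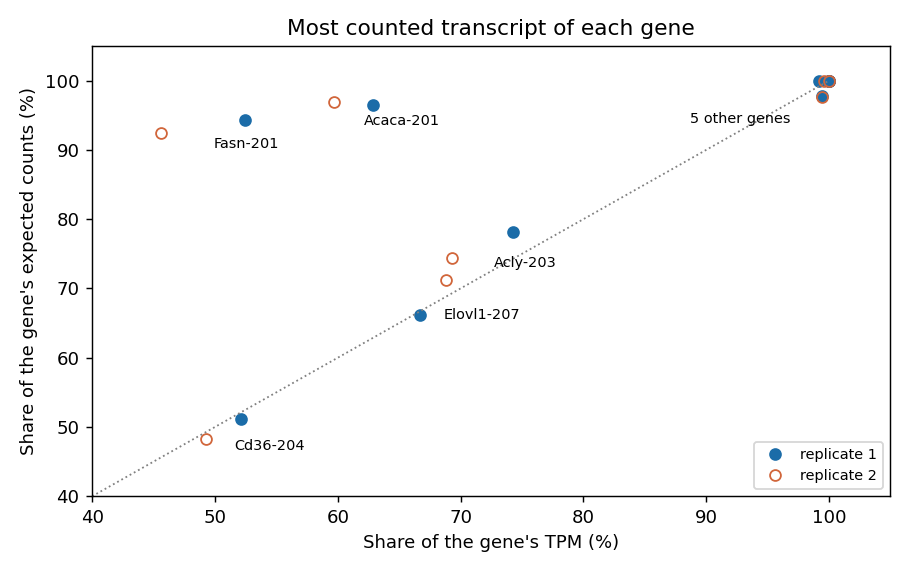
Share of each gene's expected counts (vertical axis, %) against its share of the gene's TPM (horizontal axis, %) for the transcript with the most counts, in each replicate. Fasn-201 and Acaca-201 lie far above the dotted line of equal shares, at over 92% of counts and under 63% of TPM.

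In the order of levels by whole gene, the replicates of Scd1 and Scd2 overlapped and those of the other neighbours did not. The means of Acly and Scd1 differed by about the sum of their SDs, and the lower replicate of Scd2 (94 TPM) came within 1 TPM of Elovl5 (93.7 TPM), so these neighbours did not differ beyond their spread. Counting only the transcript with the most counts exchanged 2 pairs of neighbours. By that measure, an alternative chosen after seeing the data, Fasn-201 was at 39.7 ± 5.37 TPM and Acaca-201 at 18.1 ± 1.69 TPM, a ratio of 2.19. Scd1 (163 ± 18.5 TPM) then stood above Acly-203 (144 ± 20.4 TPM) with overlapping replicates, and Fabp5-201 (377 ± 11.6 TPM) above Cd36-204 (227 ± 8.05 TPM). The places of Elovl5, Fasn, Elovl1, Acaca and Elovl6 were the same by both measures.

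Scd1 (ENSMUSG00000037071.2, GRCm38 chr19:44394455-44407879, minus strand) was at 176 TPM in replicate 1 and 150 TPM in replicate 2, from 16971 and 13868 counts. Scd2 (ENSMUSG00000025203.5, GRCm38 chr19:44293674-44306864, plus strand) was at 157 TPM and 94 TPM, from 17162 and 9861 counts. Their replicates overlapped, and the ratio of Scd2 to Scd1 was 0.892 in replicate 1 and 0.627 in replicate 2. The posterior SD of the counts was 0.7 or less for both genes although their longest identical coding run was 147 bases, so the deposited division of shared reads between them carried little uncertainty. Each has a single annotated transcript in the tables. Of the paralogs, Scd3 had 0 counts and Scd4 had 0 and 8.

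Of 14 measured genes for desaturation and its electron supply, 9 passed the threshold. Cyb5a, the cytochrome b5 that passes electrons to desaturases, was at 123 and 120 TPM. Fads1, the delta-5 desaturase of polyunsaturated fatty acids, was at 22.9 and 22.5 TPM. Fads2, which acts before it as delta-6 desaturase, was at 1.45 TPM in replicate 1 and 0.62 TPM in replicate 2, from 39 and 16 counts. With Scd2 it was 1 of 2 genes more than 1.5-fold lower in replicate 2, among 10 of this list with a mean of 20 or more counts. Over all genes with such counts the share was 1.84%. In the list for glycerolipid synthesis and storage it was also 2, of 21. Degs1, a desaturase of dihydroceramide, was at 95.5 and 94.9 TPM.

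Among the elongases, Elovl5 was highest. Elovl5 (ENSMUSG00000032349.9, GRCm38 chr9:77917364-77984519, plus strand), which lengthens polyunsaturated fatty acids, was at 93.4 TPM in replicate 1 and 93.7 TPM in replicate 2. Elovl1 (ENSMUSG00000006390.11, GRCm38 chr4:118428093-118432953, plus strand), which makes very long saturated and monounsaturated chains, was at 47 and 43.1 TPM. Elovl6 (ENSMUSG00000041220.6, GRCm38 chr3:129532355-129638495, plus strand), which lengthens palmitate to stearate, was at 4.63 and 4.51 TPM, from 554 and 518 counts. Elovl5 thus had 20.5 ± 0.433 times and Elovl1 9.85 ± 0.43 times the level of Elovl6. The ratio of Elovl1 to Elovl6 was 6.67 by the most counted transcripts and 4.48 by counts per annotated exon length.

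The other elongases were low or had no counts. Elovl7 was at 4.07 and 3.94 TPM, and Elovl2, Elovl3 and Elovl4 had 0 counts in both replicates, where 3 counts would correspond to 0.0406, 0.113 and 0.086 TPM in replicate 1 (counting error only). Of the 13 genes of the elongation cycle, 9 passed. Hsd17b12, the ketoacyl-CoA reductase of the cycle, was at 89.7 and 94.5 TPM and Tecr, its last reductase, at 66.8 and 56.6 TPM. The processed pseudogene Gm11295, with 97.4% identity to Elovl6 over 805 bases, had 0 counts.

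Elovl1 was read mainly from Elovl1-207, with 66.7% and 68.8% of the gene's TPM. Elovl1-203 lacks exon 3 (GRCm38 chr4:118430715-118430905), a coding exon of 191 bases that is no whole number of codons, and its annotated coding sequence has 606 bases in place of 837. It held 6.48% of the TPM in replicate 1 and 13.3% in replicate 2, from 65.3 and 118 counts with a posterior SD of 31.2 and 29.7. Elovl1-201, which starts at another base of the same first exon, held 16.5% and 8.16%. The differences between replicates in these minor transcripts rest on few counts.

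**Figure D3:**
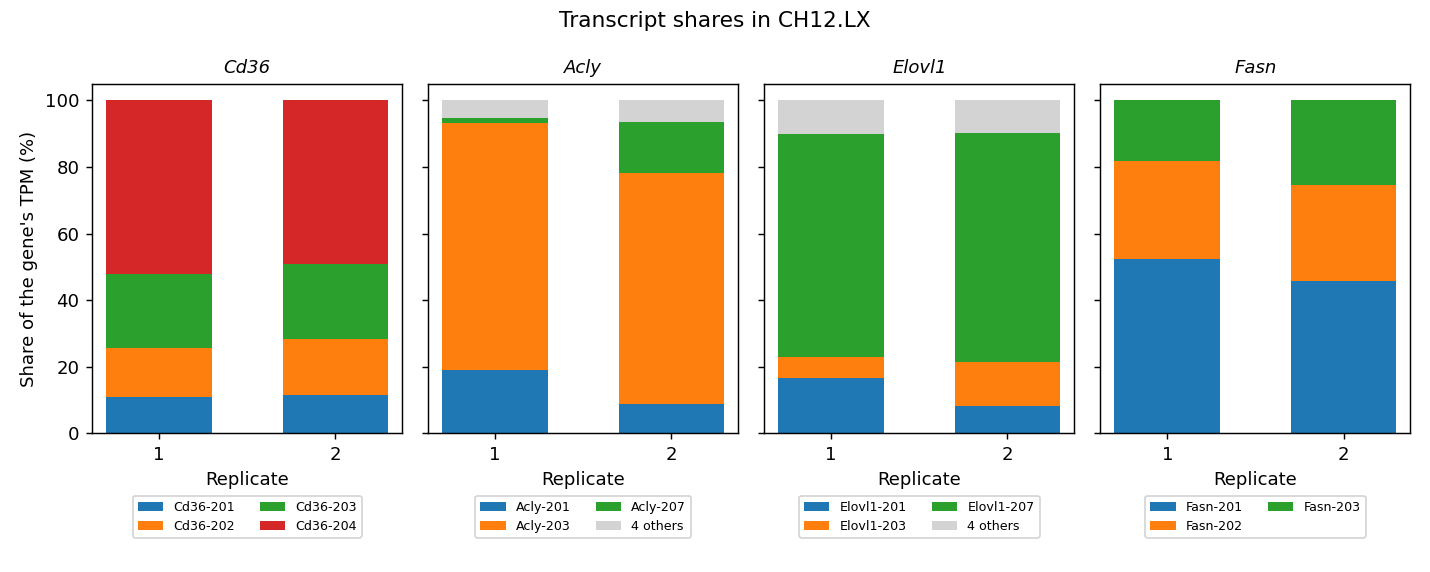
Stacked share of the gene's TPM (%) held by each transcript of Cd36, Acly, Elovl1 and Fasn in replicates 1 and 2, with transcripts under a mean of 5% joined as others. The shares of the Cd36 transcripts were close between replicates, whereas Acly-201 and Acly-207 exchanged places.

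The replicates differed by less than 1.5-fold in most of the 10 genes. On the log2(TPM + 0.5) scale, replicate 2 minus replicate 1, the values lay between -0.74 for Scd2 and 0.16 for Cd36, with a median of -0.095 against -0.002 over 11661 genes with a mean of 20 or more counts. Scd2 was the single gene past 1.5-fold, at 1.67-fold lower in replicate 2. Of all genes tested, 1.84% were more than 1.5-fold lower and 0.858% more than 1.5-fold higher in replicate 2. Read against that share, 1 of 10 is a count too small to set these genes apart. By counts relative to the library total, Scd2 in replicate 2 was 0.596 times its value in replicate 1, with an exact binomial 95% interval of 0.581 to 0.611 that covers counting error only. The same interval left out a ratio of 1 for 8 of the 10 genes, all but Elovl5 and Elovl6, with that of Fabp5 bordering on it (1.0 to 1.08). The share of all tested genes with such an interval was not computed, so this count cannot be read as particular to these genes. Relative to library totals, a difference beyond counting error was thus not particular to Scd2 among the 10. In size by TPM, the decrease of Scd2 ranked 100 among the 11661 tested genes and 9 among 4722 with a mean of 1000 or more counts. The spread between cultures cannot be judged from 1 pair.

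By sign alone, 7 of the 10 genes were lower in replicate 2 and 3 higher, by TPM and by TMM-scaled counts but not by spike-in scaling. Acly (-0.19), Acaca (-0.12), Fasn (-0.08), Scd1 (-0.23), Scd2, Elovl1 (-0.13) and Elovl6 (-0.03) were lower on the TPM scale, and Cd36 (0.16), Fabp5 (0.06) and Elovl5 (0.01) were higher. These signs were the same with counts scaled by edgeR's TMM factors, where 49.8% of all tested genes were lower by any amount and 1.39% by more than 1.5-fold. On that scale Fasn was at -0.24 and Acaca at -0.19, and the median of the 10 genes was -0.18. The median absolute difference over all tested genes was 0.135 by TPM and 0.128 with TMM factors. By TPM, the differences of Fasn, Acaca, Elovl1, Elovl5, Elovl6 and Fabp5 were smaller than that of this typical gene. Scaled by TMM, only Elovl5, Elovl6 and Fabp5 stayed smaller, and Fasn, Acaca and Elovl1 (-0.18) were larger. With counts scaled to the ERCC spike-ins, the median of all genes moved to 0.29 and 9 of the 10 genes were higher in replicate 2, all but Scd2 at -0.43. Relative to TMM-scaled counts, that scaling adds nearly the same amount to each of the 10 genes, so it moves signs and not their order. Relative to TPM the order changed in part, with Fasn (0.06) now below Scd1 (0.08) and Acly (0.09).

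**Figure D4:**
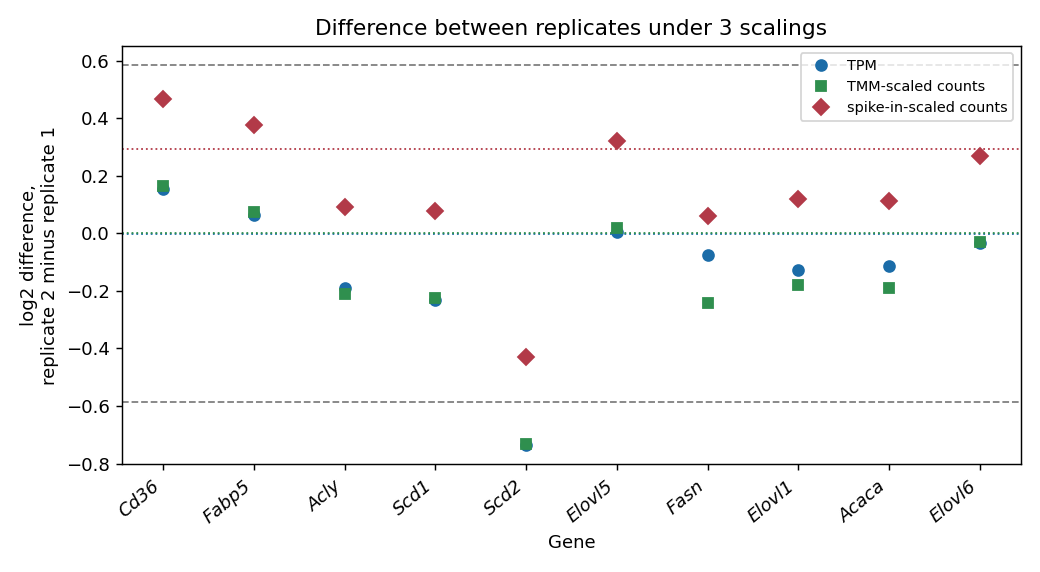
Difference between replicates (log2, replicate 2 minus replicate 1) of each gene by TPM, by TMM-scaled counts and by spike-in-scaled counts. Dotted lines give the median of all tested genes under each scaling and dashed lines 1.5-fold. Scd2 was past 1.5-fold by TPM and by TMM but not by spike-in scaling, and Fasn was farther from 0 by TMM than by TPM.

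Regulators of these genes were present in the SREBP branch and outside it. Of 34 regulators, 27 were at 1 TPM or more in both replicates and 3 had 0 counts. Srebf1, whose SREBP-1 products drive fatty-acid synthesis genes, was at 53.6 and 52.6 TPM, and Srebf2, which favours cholesterol genes, at 43.2 and 32.7 TPM. Outside the SREBP branch, Cop1 (71.9 and 101 TPM), Mlx (89.8 and 71.5 TPM) and Prkag1 (64 and 64.7 TPM) stood above Srebf1. Insig1, a sterol-regulated retention factor for SREBP and itself an SREBP target, was highest of the list at 159 TPM in replicate 1 and 112 TPM in replicate 2. Mlxipl, the carbohydrate-response factor ChREBP, and the lipid-sensing receptor Pparg had 0 counts, as did the coactivator Ppargc1a. Nr1h2, the liver X receptor beta, was at 10.7 and 10.6 TPM, and Nr1h3, its alpha form, had 4 and 5 counts. Of the 28 regulators with enough counts, none was past 1.5-fold between replicates, and 21 were lower in replicate 2 with TMM factors, with a median of -0.09. Over all tested genes 49.8% were lower with TMM factors and 10.2% with spike-in scaling.

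**Figure D5:**
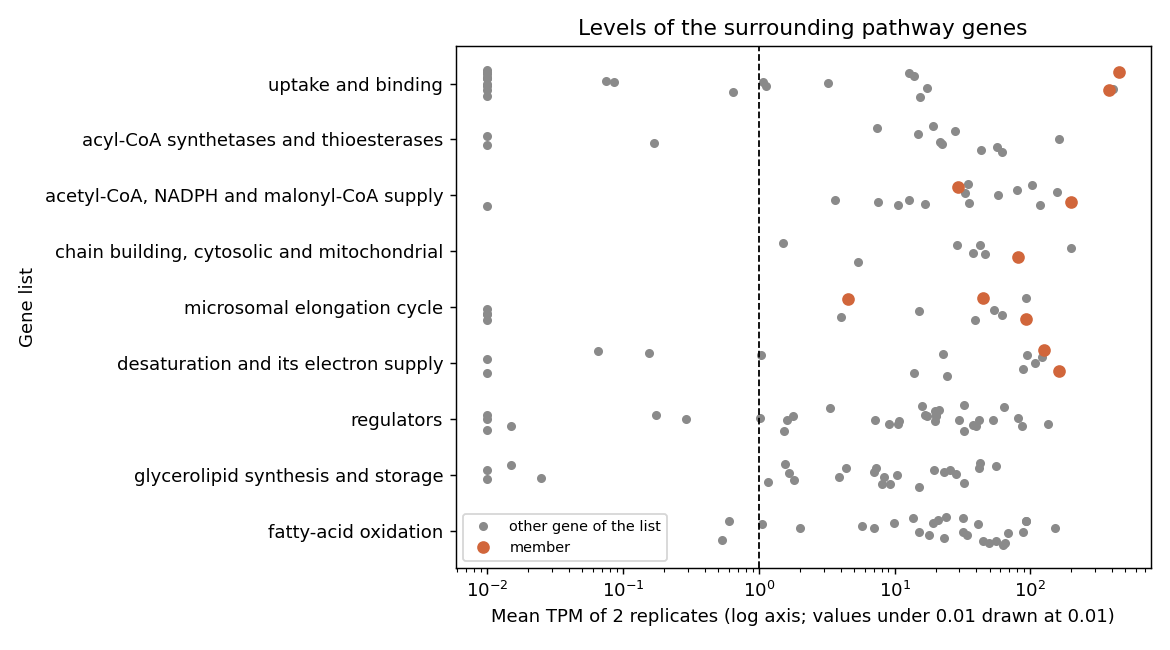
Mean TPM of the 2 replicates (log axis) for every measured gene of 9 lists around fatty-acid supply and use. Orange points are the 10 genes described here and grey points the others of each list. The dashed line marks 1 TPM. Cd36 and Fabp5 lie at the right end of their list with Dbi between them, and the list of oxidation genes has most of its points above 1 TPM.

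Genes that use fatty acids were also measured. Of 13 acyl-CoA synthetases and thioesterases, 10 passed, and Acsl5, which activates long-chain fatty acids, was highest at 157 and 169 TPM. Of 25 genes for glycerolipid synthesis and storage, 20 passed. Lpcat3, which puts polyunsaturated chains into phospholipids, was highest there at 59.1 and 52.5 TPM, and the lipid-droplet genes Plin4 and Plin5 had 0 counts. Dgat2, an enzyme of triglyceride synthesis, was at 2.12 and 0.98 TPM. Of 28 fatty-acid oxidation genes, 25 passed, with Acadm, the medium-chain acyl-CoA dehydrogenase, highest at 143 and 158 TPM. Cpt1a, the carnitine palmitoyltransferase that admits long chains to mitochondria, was at 0.62 and 0.59 TPM, and its neural isoform Cpt1c at 5.62 and 5.84 TPM. The median difference of the oxidation list was 0.06 with TMM factors and that of the supply list, which includes Acly and Acaca, was -0.15. Over all tested genes it was 0.001. The uptake list was also at 0.06 and the B-cell markers were at -0.12, so neither sign was particular to these 2 lists.

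RefSeq promoter windows on GRCm38.p6, from 250 bases before to 50 after an annotated transcription start, matched 7 of the 10 genes with 8 windows. A window covers 1 start, which need not be the outermost or the most used one: that of Cd36 (chr5:17835847-17836146) lies by the start region with 11.1% of its TPM, and that of Acaca at the start of Acaca-201, inside the gene's annotated span. Fabp5, Scd1 and Scd2 had none. The bases upstream of the start are shown for Acly, the highest of the synthesis genes, and for Fasn. Capitals mark matches to the motifs searched.
Acly, chr11:100528001-100528120, minus strand: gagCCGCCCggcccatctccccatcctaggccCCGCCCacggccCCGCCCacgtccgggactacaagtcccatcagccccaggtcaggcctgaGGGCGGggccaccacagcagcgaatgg
Fasn, chr11:120824548-120824667, minus strand: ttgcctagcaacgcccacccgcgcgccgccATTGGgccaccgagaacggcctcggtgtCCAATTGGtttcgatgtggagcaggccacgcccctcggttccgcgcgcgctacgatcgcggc
The motifs were searched on both strands. The NF-Y box CCAAT was found in 5 of the 8 windows and in 37.4% of 32851 promoter windows, and the GC box GGGCGG in 4 of 8 and in 35.7%. Fasn held 3 NF-Y boxes, of which a pair overlaps, and no GC box. Acly held 4 GC boxes and an NF-Y box downstream of its start. The E-box CACGTG was found in 1 window, that of Elovl5, and in 7.15% of all windows. The windows of Elovl6 and Acaca held none of the motifs. The sterol regulatory element core TCACNCCAC was found in none of the 8 and in 1.24% of all. A match is a description of letters and a missing one says only that these letters are not in the window.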

How the data were processed

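RNA of CH12.LX was measured in 2 libraries numbered in the labels as biological replicates. The authors deposited a gene table and a transcript table for each, on mm10 with GENCODE annotation M4 per the files that accompany them. Which programs aligned and quantified the reads is not given in the sources used here. Expected counts are estimated counts per feature as deposited, not normalized, with shared reads divided between features. TPM values were deposited by the authors and sum to the same total over all features, spike-ins included. The isoform percent is, per the file headers, a transcript's share of its gene's TPM. Transcript lengths are as deposited. The deposited 95% credibility bounds of TPM, treated as a signal, were not used as errors: 8 of the 20 TPM values of the 10 genes (Cd36, Fabp5, Acly, Scd1 and Scd2) lie outside their own bounds. Short features carry much of the TPM: mt-Atp8 alone held 6.56% and 9.09% of it.

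Symbols and coordinates came from GENCODE M21 on GRCm38 by identifier. Of 39 transcripts of the 10 genes, 31 have the same length in M21. Expressed means at least 1 TPM in both replicates. Differences between replicates are on the log2(TPM + 0.5) scale, for genes averaging 20 or more expected counts, and the scale understates differences of low genes. Copies were found with BLAST+ 2.17.0 (90% identity or more over at least 200 bases). Scalings used edgeR 4.0.16 and DESeq2 1.42.0 on rounded expected counts. No test was made, and the fold of 1.5 compares 2 libraries. The genes and the lists (9 of pathways, 7 of markers) were chosen with earlier results of these data known, and all 10 genes, the highest and lowest of each list and others needed to describe it could be named. Hsd17b8 and Faxdc2 were not matched. The difference of log2 values was tried on simulated counts with counting error only, scaled by library total. That trial does not cover the deposited TPM or the spread between cultures. Alternatives changed the threshold, the pseudocount, the scaling, the filter, the transcripts counted and the replicates.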

Additional observations from a re-analysis of the deposited data

How the results depend on the processing

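All 10 genes stayed at 1 TPM or more with posterior mean TPM and with rescaled TPM. Rescaling left out mitochondrial genes, spike-ins and features of effective length under 100 nt. Either replicate alone also gave 10, which follows from passing in both. At 5 TPM, 9 passed, all but Elovl6. Scd2 was past 1.5-fold with posterior means, rescaled TPM, TMM and median-of-ratios factors. Pseudocounts of 0.1 and 1 and no filter gave the same, but could hardly change the result at its level and counts. With ERCC scaling 0 of the 10 genes were past 1.5-fold, and the median difference moved from -0.095 to 0.116 while that of all genes moved to 0.293. The cause was not tested. Leaving out a replicate gives no difference, and no paired analysis was possible because there is a single group. Rescaled TPM raised 9 of the 10 levels by more than 1 SD, Cd36 to 510 TPM. The ratio of Fabp5 to Cd36 was 0.205 by counts per annotated exon length and 1.66 by the most counted transcripts, against 0.847; the annotated exons of Fabp5 include the retained intron of Fabp5-202. The ratio of Fasn to Acaca was between 2.19 and 3.75. With 2 libraries, every SD given rests on a single difference.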
